A study of Mus musculus with 9 samples.

Results

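Proteasome genes of mouse cortical neurons were followed through hypoxia and thyroid hormone treatment. The genes were chosen by symbol: a row of the expression table was taken where its symbol began with Psm, a letter from a to g and a number, and where its value was above 1 in at least 3 of the 9 libraries. Of 24054 rows, 50 matched the symbol pattern and 46 also passed the filter, among 12923 rows that passed it in all. The neurons were primary wild-type C57BL/6 cortical cells, cultured for 6 days in Neurobasal medium with B27 supplement. There were 3 groups of 3 libraries each. Cells of the first were kept at 0.2% oxygen for 7 hours with 10 nM T3, the active thyroid hormone triiodothyronine, in the medium. The second had the same hypoxia without T3, and the third, the control, was kept in normoxia. A normoxia group with T3 was not analysed here, so the hormone was compared only within hypoxia. The values are CPM, read counts scaled to a common library total, after normalization by the trimmed mean of M-values (TMM), and per-library values are given in the order 11, 12 and 13 for hypoxia with T3, 7, 8 and 9 for hypoxia, and 1, 2 and 3 for normoxia. No label tells if each library is a culture of its own; the p-values therefore reflect library-to-library spread that may be technical only. The depth was 17182338 to 33937842 recovered reads per library, so that 1 read was worth 0.0302 to 0.0565 CPM.

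The proteasome is the protease that degrades ubiquitin-tagged proteins. Its 20S core is a barrel of alpha and beta rings, and 3 of the constitutive beta subunits, encoded by Psmb5, Psmb6 and Psmb7, carry the proteolytic sites. The 19S regulatory particle caps the core: its ring of ATPases, the Psmc genes, unfolds the substrate, and its non-ATPase subunits, most of the Psmd genes, bind and remove ubiquitin. Other caps are encoded by Psme genes, and dedicated chaperones assemble the core (Psmg genes) and the ATPase ring (Psmd5, Psmd9 and Psmd10). In mammalian cells the transcription factor NRF1, encoded by Nfe2l1, raises proteasome genes together when proteasome activity is short, through antioxidant response elements in their promoters. In neurons the proteasome also takes part in synaptic remodelling and in the handling of damaged proteins.

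The 46 genes comprised 7 alpha subunits, 7 constitutive beta subunits, 2 inducible or tissue-restricted beta subunits, 6 ATPases, 11 non-ATPase subunits, 5 genes of alternative activators and the PI31 regulator, 7 assembly chaperones and Psmc3ip. Psmc3ip matches the pattern but encodes a meiotic recombination factor, not a subunit, so 16 core, 22 regulatory and 7 assembly genes were described as proteasome genes proper. The 4 rows below the filter were Psma8, the alpha subunit of the testis, at 0 in every library, the immunoproteasome genes Psmb8 (0.0406 to 0.214 CPM) and Psmb9 (0.125 to 0.487 CPM), and Psme2b (0 to 0.572 CPM). Just inside the filter was Psmb11, the thymus-specific beta subunit, which was above 1 CPM in 4 libraries and spanned 0.167 to 1.28 CPM; Psmc3ip was above 1 CPM in 8. Levels between genes are compared in CPM per kb of the principal transcript, so they depend on which transcript is taken for a gene. Constitutive beta subunits stood highest, with a median of 96.9 CPM per kb in hypoxia with T3, 81.7 in hypoxia and 84.3 in normoxia. Assembly chaperones stood lower, with medians of 11.7, 10.8 and 11.3 CPM per kb in the same groups. In normoxia the medians were 58.4 for alpha subunits, 61.3 for ATPases, 63.5 for non-ATPase subunits and 25.7 CPM per kb for activators. The ranges of alpha subunits (24.3 to 105), ATPases (30.1 to 82.0) and non-ATPase subunits (26.9 to 106 CPM per kb) overlap there. The low end of the alpha range is Psma2 and Psma3, with transcripts of 2911 and 2846 bases. In CPM these genes stood at 70.7 and 80.9 in normoxia, above Psma5 at 48.0 CPM, which has 38.7 CPM per kb. The highest single levels were those of the beta gene Psmb6, with 167, 148 and 145 CPM per kb in hypoxia with T3, hypoxia and normoxia, followed by the alpha gene Psma7, with 131, 110 and 105 CPM per kb, and the 19S gene Psmd2, with 118, 103 and 106 CPM per kb, which are in the other order in normoxia.

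**Figure D1:**
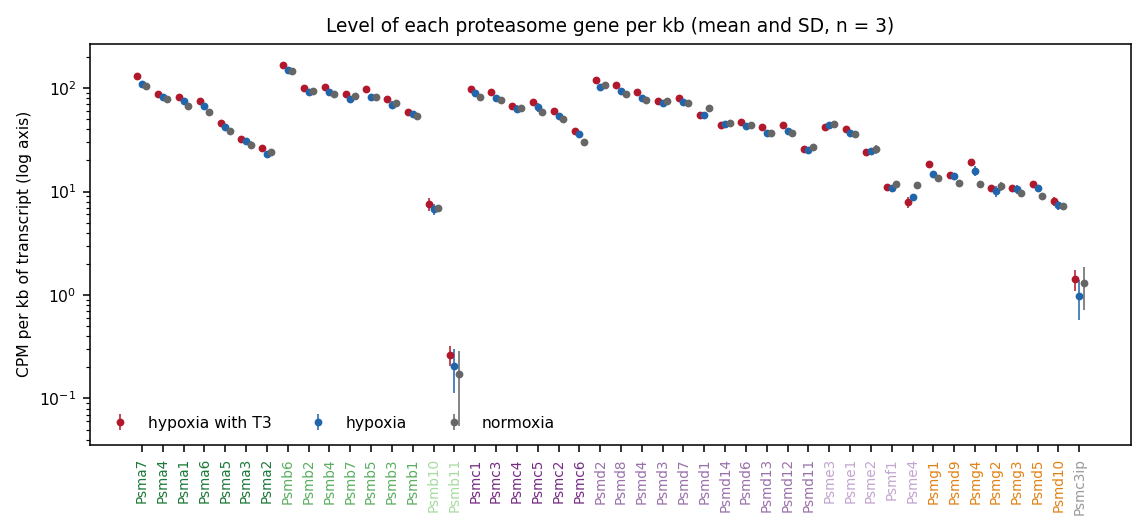
Level of each gene in CPM per kb of its principal GENCODE transcript (log axis), mean and SD of 3 libraries, for hypoxia with T3, hypoxia and normoxia; names are coloured by subunit class. Constitutive core and 19S genes lie between 23.3 and 167 CPM per kb and assembly chaperones between 7.22 and 19.4, while the immune beta subunit Psmb10 is at 6.75 to 7.58 and the thymic Psmb11 at 0.171 to 0.263.

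Promoters are shown for 4 genes because each was called in hypoxia against normoxia or in hypoxia with T3 against hypoxia and each holds the core of an antioxidant response element, TGACNNNGC, on either strand. RefSeq gave 41 promoters, each of 250 bases before and 50 after a transcription start (build GRCm38.p6), for 38 of the 45 proteasome genes. Capitals mark the motif, whose leftmost printed base lies at -47 in Psmb5 and -31 in Psmd9 relative to the start, as spelled, and at -227 in Psmc6 and -7 in Psme4 as the reverse complement. Psmb5 is at chr14:54617946-54618245 on the minus strand. The others are on the plus strand, Psmc6 at chr14:45329574-45329873, Psmd9 at chr5:123227940-123228239 and Psme4 at chr11:30771525-30771824.
Psmb5: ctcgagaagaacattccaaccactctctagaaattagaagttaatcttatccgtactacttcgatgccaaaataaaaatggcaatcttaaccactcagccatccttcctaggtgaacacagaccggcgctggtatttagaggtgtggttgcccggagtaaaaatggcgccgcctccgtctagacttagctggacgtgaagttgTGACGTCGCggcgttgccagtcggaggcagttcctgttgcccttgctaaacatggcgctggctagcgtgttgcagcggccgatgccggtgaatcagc
Psmc6: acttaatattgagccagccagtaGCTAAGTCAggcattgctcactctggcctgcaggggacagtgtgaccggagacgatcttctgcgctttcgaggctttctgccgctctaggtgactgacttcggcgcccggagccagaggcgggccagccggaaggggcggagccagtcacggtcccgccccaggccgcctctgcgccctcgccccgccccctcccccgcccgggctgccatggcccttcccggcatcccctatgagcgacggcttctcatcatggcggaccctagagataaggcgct
Psmd9: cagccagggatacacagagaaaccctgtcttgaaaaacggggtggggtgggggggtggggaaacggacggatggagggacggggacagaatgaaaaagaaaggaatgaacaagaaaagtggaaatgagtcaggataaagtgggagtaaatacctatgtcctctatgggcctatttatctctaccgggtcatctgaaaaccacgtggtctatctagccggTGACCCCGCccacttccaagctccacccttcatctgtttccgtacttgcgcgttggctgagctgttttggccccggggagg
Psme4: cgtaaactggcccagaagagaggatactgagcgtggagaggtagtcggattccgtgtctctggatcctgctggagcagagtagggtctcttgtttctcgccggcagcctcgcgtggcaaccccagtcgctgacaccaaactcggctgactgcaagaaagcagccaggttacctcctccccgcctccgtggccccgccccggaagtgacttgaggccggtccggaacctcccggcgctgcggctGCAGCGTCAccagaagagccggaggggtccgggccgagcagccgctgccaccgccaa
The motif was in 6 of the 41 promoters (14.6%), against 14.0% of 12486 promoters of genes tested; the other holders were Psmb6 and Psmd12, called higher in hypoxia with T3 against normoxia but not in the other comparisons. The hypoxia response element core, ACGTG, was in 8 (19.5%) against 25.1%, and the CCAAT box, CCAAT, in 13 (31.7%) against 37.9%, both strands searched. ACGTG can share letters with the first motif. Psmb5 and Psmd9 held both, and in neither printed sequence do the motifs share a letter. These shares are descriptions of letters in a window and say nothing of what binds there.

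The first comparison asked what 7 hours of hypoxia changed. In hypoxia 5 proteasome genes rose and 2 fell relative to normoxia: the assembly chaperones Psmg4, Psmd5 and Psmd9, the ATPase Psmc6 and the core alpha subunit Psma6 rose, and Psme4, which encodes the nuclear activator PA200, and Psmd1, a scaffold of the 19S base, fell. The other 39 did not pass the threshold, an adjusted p of 0.05 in limma over all 12923 genes. Of all genes 33.6% were called, 14.3% higher and 19.3% lower, so 7 of 46 was a smaller share than over all genes. The median log2 change was 0.03 over the 46 genes and -0.00 over all genes, and 26 of 46 genes lay above 0 (49.9% of all genes did). By group it was 0.05 in the core, with 1 of 16 genes called higher, and -0.01 in the regulatory genes, with 1 higher and 2 lower of 22. In the assembly genes it was 0.12, with 3 of 7 higher. Whether the groups of subunits differ in their response was not tested. All libraries of hypoxia lay above all of normoxia for 8 genes (20.7% of all genes) and below for 5 (27.0%). The split of 5 higher and 2 lower turned to 22 and 1 with columns rescaled to equal sums, 16 and 1 with equal sums without the ribosomal precursor Rn45s, and 10 and 1 with quantile normalization. The median of all genes moved to 0.13 with equal sums, and relative to it the medians were 0.06 in the core, -0.00 in the regulatory and 0.12 in the assembly genes. With quantile normalization the median of all genes was 0.01. Relative to it the medians were 0.09 in the core, 0.05 in the regulatory and 0.09 in the assembly genes. The regulatory median was thus above 0, and the assembly genes no longer stood above the core. The count was 3 without normoxia 2 and 4 without hypoxia 7 or hypoxia 9.

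**Figure D2:**
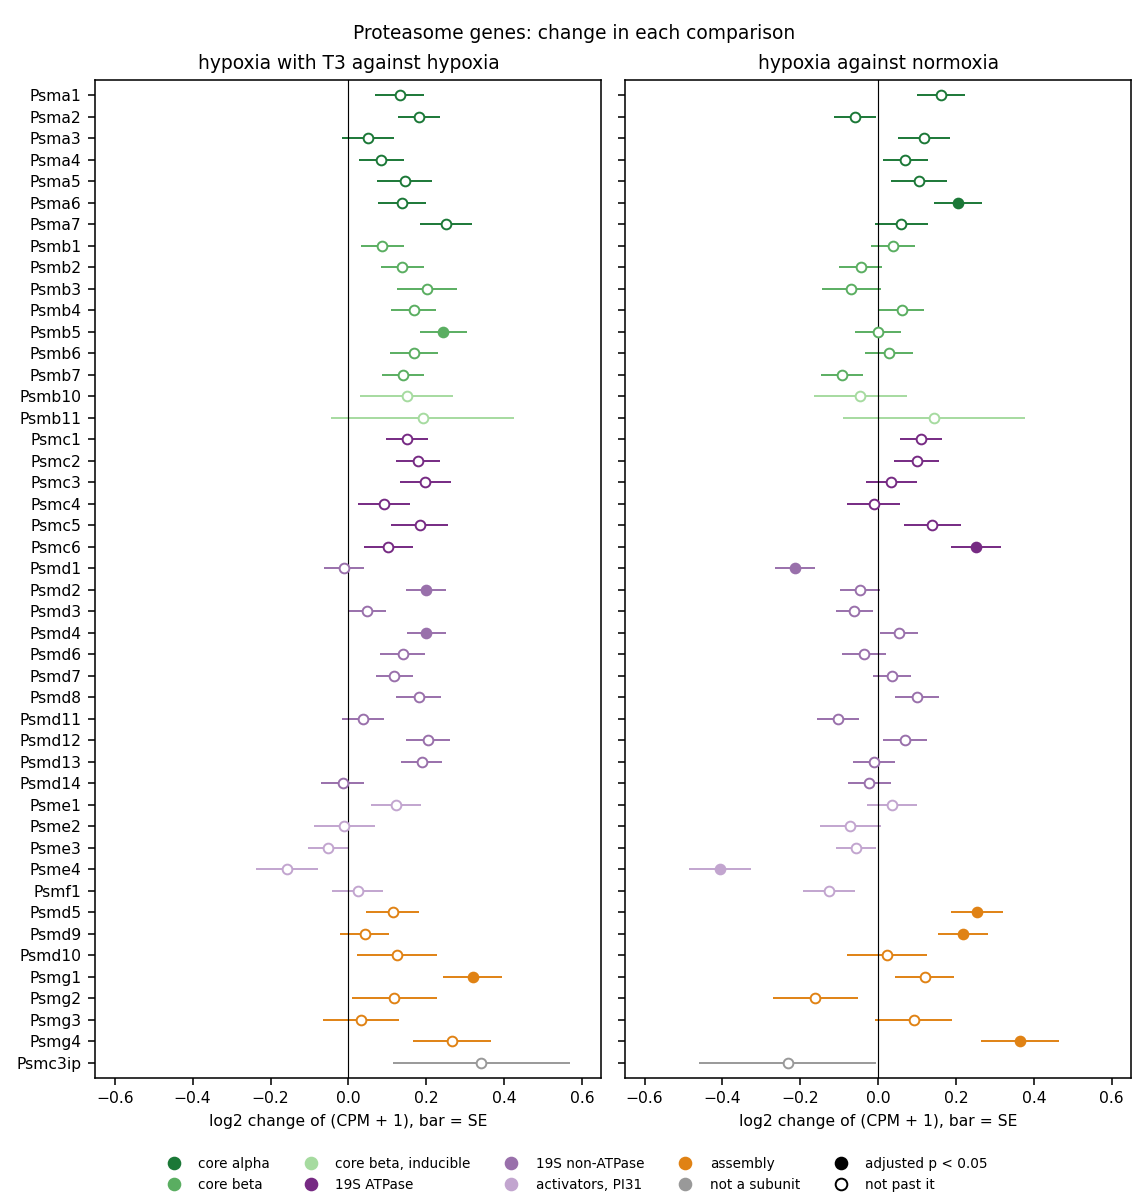
Log2 change of each proteasome gene (point) with its SE (bar) in hypoxia with T3 against hypoxia (left) and hypoxia against normoxia (right), on the log2(CPM + 1) scale; filled points passed an adjusted p of 0.05. In the left panel 41 of 46 points lie right of 0 and 4 are filled; in the right panel 26 do, with 5 filled above 0 and 2 below.

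Psmg4, a chaperone that joins early alpha subunits, had 8.76, 7.86 and 9.83 CPM in hypoxia, against 6.87, 6.31 and 6.61 CPM in normoxia. The 3 hypoxia libraries all lay above normoxia, and the rise was significant in limma (log2 change 0.37, SE 0.10, adjusted p = 0.017). The call was lost without normoxia 2 (adjusted p = 0.0556) or hypoxia 9 (0.0681). Psmd5 and Psmd9, chaperones of the 19S base, also rose. Psmd5 had 51.9, 45.0 and 45.8 CPM in hypoxia and 41.2, 38.2 and 39.6 CPM in normoxia (log2 change 0.25, SE 0.07, adjusted p = 0.015). Psmd9 had 37.5, 34.5 and 37.6 CPM in hypoxia and 32.9, 30.5 and 30.3 CPM in normoxia (log2 change 0.22, SE 0.06, adjusted p = 0.022). In both genes the groups did not overlap. The call on Psmd5 was lost without normoxia 2 (adjusted p = 0.0539) or hypoxia 7 (0.0578), and that on Psmd9 without normoxia 2, normoxia 3, hypoxia 7 or hypoxia 9 (0.0665 to 0.0734). The other assembly genes stood at 0.12 (Psmg1, groups apart, adjusted p = 0.24), 0.09 (Psmg3), 0.02 (Psmd10, gankyrin) and -0.16 (Psmg2).

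Among regulatory genes the largest change was a fall of the activator gene Psme4. It had 56.6, 55.9 and 58.3 CPM in hypoxia, against 75.8, 74.3 and 76.9 CPM in normoxia. The gap between the groups was far wider than the spread within either, and the hypoxia mean was 0.752 times that of normoxia (log2 change -0.41, SE 0.08, adjusted p = 0.0033). The call held in every alternative run. Psmd1 had 176, 164 and 172 CPM in hypoxia and 198, 196 and 200 CPM in normoxia (log2 change -0.21, SE 0.05, adjusted p = 0.0093). All hypoxia libraries were lower, but the call was lost with equal column sums (log2 change -0.07, adjusted p = 0.308), with equal sums without Rn45s (0.114) and with quantile normalization (0.127). Psmd1 shares an exon with the same-strand gene model Gm21972, so its reads are uncertain. Psmc6, an ATPase of the base, had 83.02, 77.3 and 80.1 CPM in hypoxia, against 64.7, 64.4 and 72.6 CPM in normoxia. The groups did not overlap, and the rise of 0.25 (SE 0.06, adjusted p = 0.012) was called in every alternative fit at the threshold of 0.05, though not at 0.01.

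No other regulatory gene was called in hypoxia, with log2 changes from -0.13 (Psmf1) to 0.14 (Psmc5). All hypoxia libraries lay above normoxia for Psmd8 (0.10) and below it for Psmd3 (-0.06). The ATPase gene Psmc1 had 149, 133 and 142 CPM in hypoxia and 136, 127 and 128 CPM in normoxia, which overlap (log2 change 0.11, adjusted p = 0.13). Psmc4 had 89.5, 84.0 and 100.004 CPM in hypoxia and 91.8, 90.8 and 92.5 CPM in normoxia, with a wide spread in hypoxia and a log2 change of -0.01. Psmd11, a subunit of the 19S lid, had 74.8, 68.4 and 70.9 CPM in hypoxia and 76.7, 76.8 and 76.3 CPM in normoxia. Its libraries did not overlap, but the difference of -0.10 did not pass (adjusted p = 0.17). Psmf1, which encodes the regulator PI31, had 41.9, 41.5 and 39.8 CPM in hypoxia and 48.0, 42.2 and 44.6 CPM in normoxia, also without overlap and also short of the threshold (-0.13, adjusted p = 0.16). Psme1, the alpha subunit of the interferon-inducible activator PA28, had 41.1, 41.4 and 40.0 CPM in hypoxia and 42.5, 38.2 and 38.9 CPM in normoxia, which overlap. The remaining activators, Psme2 and Psme3, stood at -0.07 and -0.06.

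In the core, alpha and beta genes gave different medians, 0.11 for 7 alpha and -0.00 for 7 constitutive beta genes, a difference that was not tested. Psma6 had 71.7, 69.6 and 69.4 CPM in hypoxia, against 57.9, 58.4 and 66.2 CPM in normoxia. Every hypoxia library was above every normoxia library, though normoxia 3 stood closer (log2 change 0.21, SE 0.06, adjusted p = 0.025). The call was lost without normoxia 1 or normoxia 2 (adjusted p = 0.0817 each), hypoxia 7 (0.0698) or hypoxia 9 (0.0546). Psma1 had 93.4, 86.9 and 89.4 CPM in hypoxia and 81.9, 75.4 and 83.4 CPM in normoxia, groups apart but short of the threshold (log2 change 0.16, adjusted p = 0.064). Psmb7, the subunit with trypsin-like activity, had 91.2, 88.9 and 94.9 CPM in hypoxia and 96.8, 94.7 and 102 CPM in normoxia. These overlap, with a log2 change of -0.09 (adjusted p = 0.2), and Psmb7 also shares exon sequence with Nek6 on the opposite strand. Of the inducible or tissue-restricted subunits, Psmb10 had 8.99, 7.76 and 9.79 CPM in hypoxia and 8.66, 9.36 and 9.36 CPM in normoxia. The thymic Psmb11 had 0.961, 0.448 and 1.22 CPM in hypoxia and 0.167, 1.12 and 0.893 CPM in normoxia. Both pairs of groups overlap, and Psmb11 rests on few reads.

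**Figure D3:**
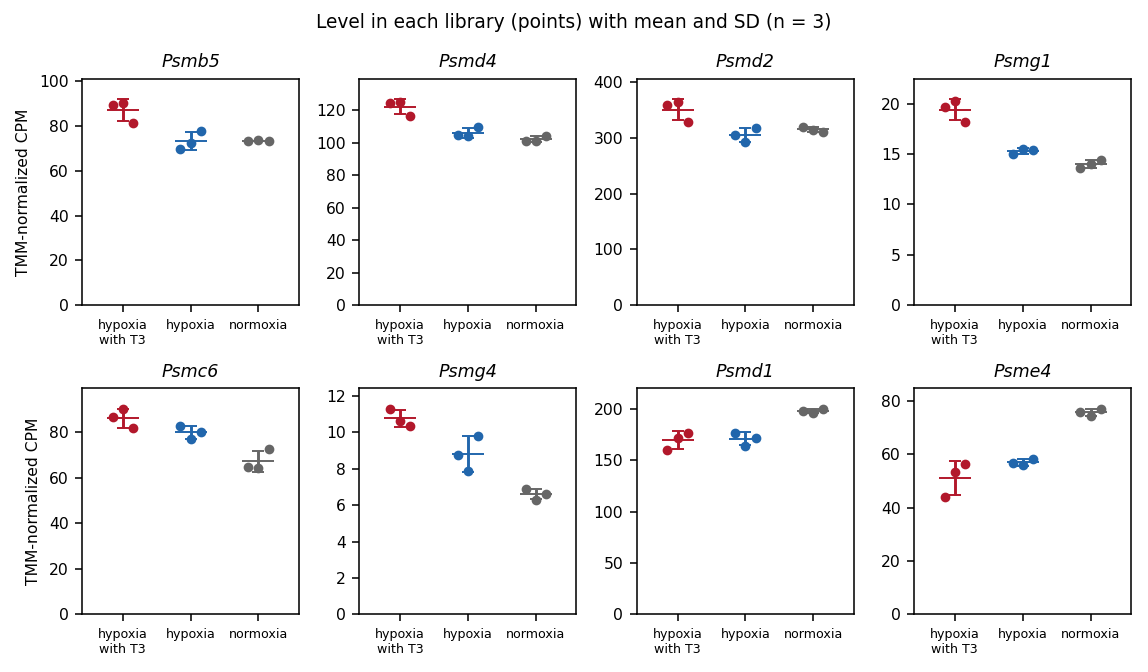
TMM-normalized CPM of 8 genes in each library (points), with mean and SD (n = 3), for hypoxia with T3, hypoxia and normoxia; every axis starts at 0. Psmb5, Psmd4, Psmd2 and Psmg1 are highest with T3, Psmc6 and Psmg4 are lowest in normoxia, and Psmd1 and Psme4 are highest in normoxia.

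The second comparison asked what T3 changed in hypoxic neurons. With T3 4 proteasome genes rose relative to hypoxia alone: the core chaperone Psmg1, the catalytic subunit Psmb5, the ubiquitin receptor Psmd4 and the 19S base scaffold Psmd2. Most of the others stood slightly higher with T3 without passing the threshold. Of all genes 6.48% were called, 2.73% higher and 3.75% lower. By limma 0 of the 46 genes were lower, as by edgeR and by DESeq2. At an unadjusted p under 0.05 in limma 0 were lower (1959 of the 12923 genes were) and 22 were higher (1632 of the 12923 genes were). By edgeR 4 were higher, where 5.835% of all genes were called in either direction, and by DESeq2 11, where 13.52% were. The log2 change lay above 0 in 41 of 46 genes, against 48.6% of all genes, and in 41 to 43 when any library was left out. Its median was 0.14, against -0.01 over all genes. All T3 libraries lay above all hypoxia libraries for 21 genes and below for 1, Psme3 (15.8% of all genes in each direction). The median was 0.15 in the core, where 16 of 16 genes lay above 0 and 1 was called. It was 0.12 in the regulatory genes, with 17 of 22 above 0 and 2 called, and 0.12 in the assembly genes, with 7 of 7 above 0 and 1 called. The count of 4 calls changed when a library was left out, and the cause was not tested. In this fit normoxia libraries enter the comparison only through the estimate of the spread. The share of all genes called then spanned 0.2399% to 14.06%. The proteasome count fell to 0 without hypoxia 7, hypoxia 8, normoxia 2, hypoxia with T3 11 or hypoxia with T3 12. The count was 3 without hypoxia 9 or normoxia 1, and 11 without hypoxia with T3 13. It was also 0 with equal column sums, without the filter on low values or with only the 6 libraries compared.

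**Figure D4:**
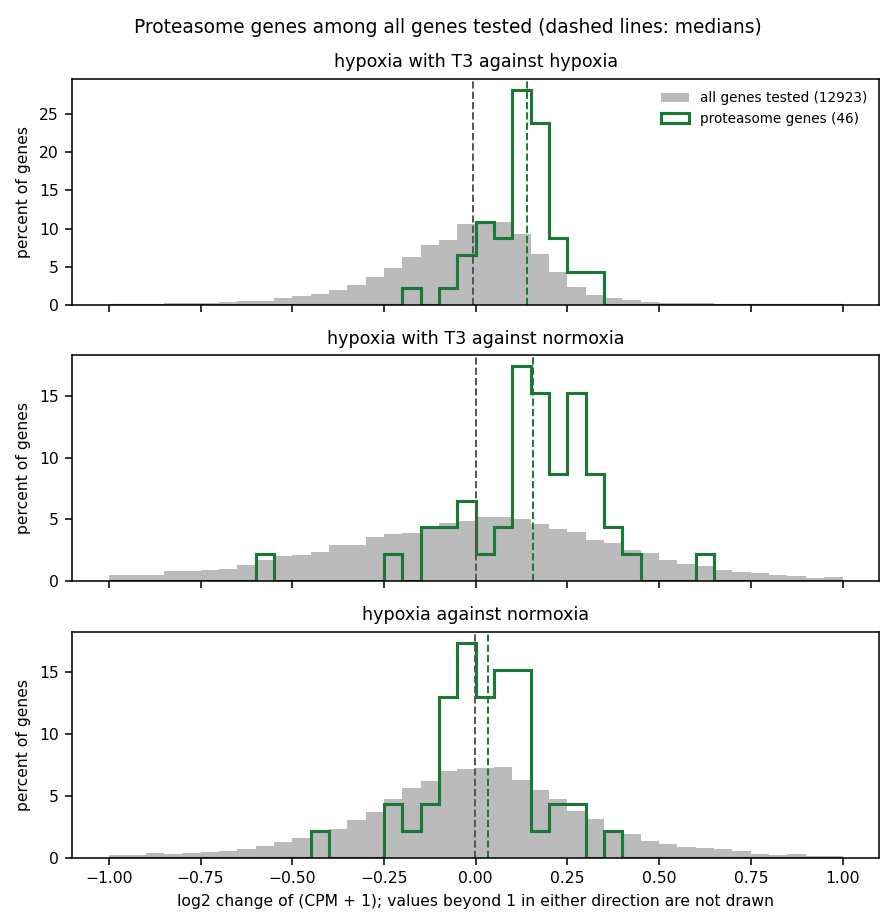
Share of genes (percent) by log2 change of (CPM + 1) in each comparison, for all 12923 genes tested (grey) and the 46 proteasome genes (green outline); dashed lines are the medians. The green median lies at 0.14 with T3 against hypoxia, 0.16 with T3 against normoxia and 0.03 in hypoxia against normoxia, with the grey medians near 0.

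In the core, Psmb5, which encodes the subunit with chymotrypsin-like activity, had 89.2, 90.5 and 81.6 CPM with T3, against 70.0, 72.3 and 78.0 CPM in hypoxia. The T3 libraries were all higher, with library 13 nearest to hypoxia (log2 change 0.24, SE 0.06, adjusted p = 0.039). In normoxia Psmb5 had 73.3, 73.6 and 73.2 CPM, and the log2 change of hypoxia against normoxia was -0.00 (SE 0.06). Psma7, an alpha subunit, had 122, 125 and 112 CPM with T3, against 94.5, 102 and 105 CPM in hypoxia and 90.5, 94.5 and 104 CPM in normoxia. Its T3 libraries lay above all others, but the difference from hypoxia did not pass (log2 change 0.25, adjusted p = 0.051). Psma2 had 79.8, 76.7 and 74.5 CPM with T3, against 69.3, 65.2 and 68.8 CPM in hypoxia and 71.2, 67.9 and 72.999 CPM in normoxia (log2 change against hypoxia 0.18, adjusted p = 0.063). Psmb4, a non-catalytic beta subunit, had 127, 123 and 116 CPM with T3, against 109, 105 and 111 CPM in hypoxia and 102, 99.2 and 111 CPM in normoxia (log2 change against hypoxia 0.17, adjusted p = 0.089). The T3 libraries of Psma2 and Psmb4 lay above all others too. In all, T3 libraries lay above hypoxia without overlap for 9 of 16 core genes (15.8% of all genes). Psma6 and Psma1, with 79.8, 76.8 and 75.5 CPM and 105, 98.8 and 92.5 CPM with T3, stood 0.14 and 0.13 above hypoxia (adjusted p = 0.17 and 0.2). Psmb7 had 105, 102 and 96.6 CPM with T3 (0.14, adjusted p = 0.12). Psmb10 with 11.7, 9.28 and 8.90 CPM and Psmb11 with 1.28, 0.832 and 1.24 CPM overlapped hypoxia.

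In the 19S particle 15 of 17 genes lay above 0 with T3, with a median of 0.15. Psmd4, which captures ubiquitin chains, had 124, 125 and 117 CPM with T3, against 104, 104 and 110 CPM in hypoxia and 101, 101 and 104 CPM in normoxia. The T3 libraries were above all others (log2 change against hypoxia 0.20, SE 0.05, adjusted p = 0.039). Psmd2, the most abundant of the Psmd messages per kb, had 359, 364 and 329 CPM with T3, against 305, 293 and 317 CPM in hypoxia and 320, 314 and 311 CPM in normoxia (log2 change against hypoxia 0.20, SE 0.05, adjusted p = 0.046). The T3 libraries again lay above all others. The calls on Psmb5, Psmd4, Psmd2 and Psmg1 were each lost without normoxia 2 (adjusted p = 0.0542 to 0.0628), hypoxia 7 (0.0984 to 0.111), hypoxia 8 (0.123 to 0.174), hypoxia with T3 11 (0.141 to 0.168) or hypoxia with T3 12 (0.13 to 0.155). That on Psmd2 was also lost without normoxia 1 (0.0509) or normoxia 3 (0.0563), and that on Psmg1 without hypoxia 9 (0.0503). Psmb5 overlaps the microRNA gene Mir686 in its exons.

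Other 19S genes stood above hypoxia to differing degrees, without passing the threshold. Psmd13 had 83.8, 86.1 and 80.2 CPM with T3, against 73.0, 70.1 and 76.2 CPM in hypoxia and 72.0, 73.6 and 75.2 CPM in normoxia. The T3 libraries stood apart from both, at a log2 change of 0.19 against hypoxia (adjusted p = 0.054); the gene overlaps Sirt3 on the opposite strand. Psmc2 had 109, 110 and 105 CPM with T3, against 99.5, 90.2 and 96.96 CPM in hypoxia and 93.3, 84.2 and 89.97 CPM in normoxia (0.18 against hypoxia, adjusted p = 0.075). Psmc3 had 159, 152 and 137 CPM with T3, against 130, 122 and 138 CPM in hypoxia and 129, 125 and 126 CPM in normoxia (0.20, adjusted p = 0.083). Psmc2 was apart from hypoxia and Psmc3 overlapped it through hypoxia 9. Psmc1 had 159, 157 and 154 CPM with T3 (0.15, adjusted p = 0.099), Psmc4 99.2, 101 and 91.1 CPM (0.09) and Psmc6 86.6, 90.1 and 81.8 CPM (0.10). Psmd1 with 160, 172 and 177 CPM, Psmd11 with 70.2, 76.1 and 73.5 CPM and Psmd14, the 19S deubiquitinase, were nearly level with hypoxia at -0.01, 0.04 and -0.01.

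The remaining core and 19S genes gave no call against hypoxia. In the core, Psma3, Psma4, Psma5, Psmb1, Psmb2, Psmb3 and Psmb6 stood 0.05 to 0.20 above hypoxia (adjusted p = 0.11 to 0.67), and -0.07 to 0.12 from normoxia in hypoxia alone. In the 19S particle, Psmc5, Psmd3, Psmd6, Psmd7, Psmd8 and Psmd12 stood 0.05 to 0.21 above hypoxia (adjusted p = 0.051 to 0.55). Psmd12 and Psmd8, lid subunits, came nearest: Psmd12 had 87.9, 85.8 and 79.7 CPM with T3, against 71.6, 73.7 and 73.9 CPM in hypoxia and 68.5, 67.4 and 72.9 CPM in normoxia. Its T3 libraries lay above all others, and the same held for Psmd8. Psmc3ip, with 2.24, 1.86 and 1.41 CPM with T3, against 0.678, 1.41 and 1.71 CPM in hypoxia and 1.37, 1.12 and 2.54 CPM in normoxia, overlapped throughout and gave no call.

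The activators gave another pattern, though the difference from the other groups was not tested. Their median was -0.01 and 2 of 5 lay above 0, and their summed level was 270 to 274 CPM with T3, against 277 to 279 CPM in hypoxia and 294 to 322 CPM in normoxia. Psme4 had 44.1, 53.2 and 56.3 CPM with T3, which overlap hypoxia because of library 13 (log2 change -0.16, adjusted p = 0.23). Psme1 had 47.1, 42.8 and 43.8 CPM with T3, all above hypoxia (0.12, adjusted p = 0.25), and Psmf1 44.2, 40.4 and 40.8 CPM (0.02). Psme3, the nuclear activator gene REGgamma, had 111, 114 and 111 CPM with T3, against 116, 116 and 115 CPM in hypoxia and 128, 115 and 119 CPM in normoxia, lower with T3 in every library but not past the threshold (-0.05, adjusted p = 0.54). Psme2 stood at -0.01. Among assembly genes, Psmg1 had 19.7, 20.3 and 18.3 CPM with T3, against 15.03, 15.6 and 15.4 CPM in hypoxia and 13.7, 14.0 and 14.4 CPM in normoxia. The gap to hypoxia was several times the spread within it (log2 change 0.32, SE 0.08, adjusted p = 0.036). Psmg4 had 11.3, 10.6 and 10.4 CPM with T3, all above hypoxia (0.27, adjusted p = 0.12). Psmd5 with 53.3, 51.0 and 50.0 CPM and Psmd9 with 37.5, 37.8 and 37.5 CPM stood 0.11 and 0.04 above hypoxia and overlapped it, as did Psmg2 (0.12), Psmd10 (0.12) and Psmg3 (0.03).

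**Figure D5:**
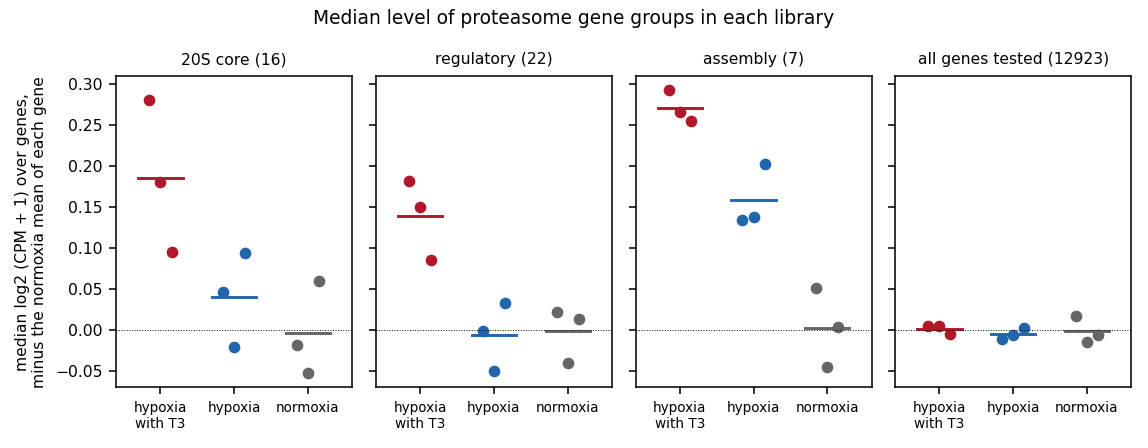
Median over genes of log2(CPM + 1) minus each gene's normoxia mean, for every library (points) and group (line, mean), in core, regulatory and assembly genes and in all genes tested. In the core, hypoxia with T3 13 (0.09) lies level with hypoxia 9 (0.09), and the assembly medians are 0.26 to 0.29 with T3, 0.13 to 0.20 in hypoxia and -0.05 to 0.05 in normoxia.

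Hypoxia with T3 was also set against normoxia, a comparison that shares its libraries with both others. Of the 46 genes 24 rose and 2 fell, where 55.1% of all genes were called, 25.5% higher and 29.5% lower; the share called was thus near that of all genes, with more of it upward. The 24 were 6 of 7 alpha genes (all but Psma2), the beta genes Psmb4, Psmb5 and Psmb6, 5 of 6 ATPases (all but Psmc4), the non-ATPase genes Psmd2, Psmd4, Psmd7, Psmd8, Psmd12 and Psmd13, and the chaperones Psmd5, Psmd9, Psmg1 and Psmg4. Psme4 and Psmd1 were lower. The median was 0.16 over the 46 genes, 0.18 in the core, 0.15 in the regulatory and 0.26 in the assembly genes, against 0.00 over all genes, and 37 of 46 lay above 0 (50.2% of all genes). All T3 libraries lay above all of normoxia for 27 genes (29.8% of all genes) and below for 4 (33.0%). Psmg4 stood furthest up, at 10.8 ± 0.476 CPM with T3 and 6.598 ± 0.278 CPM in normoxia (SD, n = 3 each), a ratio of 1.63 (log2 change 0.63, adjusted p = 0.00034). Psmg1 rose by 0.44 (adjusted p = 0.00058), Psmd5 by 0.37 (0.00091), Psmc6 by 0.35 (0.00074) and Psma6 by 0.34 (0.00072). Psme4 averaged 51.2 ± 6.35 CPM with T3 and 75.7 ± 1.28 CPM in normoxia (log2 change -0.56, adjusted p = 0.00016). Psmd1 fell by 0.22 (adjusted p = 0.0033), a call lost with equal column sums (0.0857).

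Of these 26 calls, 20 held when any library was left out. The 6 others were lost without hypoxia with T3 12, Psma3 at an adjusted p of 0.114, Psma4 at 0.125, Psmb6 at 0.0603, Psmd13 at 0.0682, Psmd2 at 0.113 and Psmd7 at 0.0552. Without hypoxia with T3 11 the calls on Psma3 (0.15), Psma4 (0.11), Psmb6 (0.0807), Psmd2 (0.0825) and Psmd7 (0.0561) were lost. Without normoxia 2 those on Psma3 (0.0836), Psma4 (0.161), Psmb6 (0.0772) and Psmd2 (0.0614) were, and without normoxia 3 those on Psmd2 (0.0718) and Psmd7 (0.062). Psma3 was further lost without normoxia 1 (0.178), and Psma3 and Psma4 without hypoxia 7 or 9 and Psma3 without hypoxia 8 (0.0509 to 0.0586). All 5 genes that rose in hypoxia, both that fell and all 4 that rose with T3 over hypoxia were called here in the same direction. Since the change with T3 against normoxia is the sum of the other changes, this overlap is partly built in. Summed over the 46 genes, the level was 3993, 3977 and 3773 CPM in hypoxia with T3, 3612, 3457 and 3664 CPM in hypoxia and 3577, 3452 and 3616 CPM in normoxia. The T3 libraries lay above the other 6, and hypoxia and normoxia overlapped.

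Genes around the proteasome were counted in the same fits. Of 19 partners outside the symbol pattern, 2 rose with T3 over hypoxia, Adrm1, a 19S ubiquitin receptor (log2 change 0.27, adjusted p = 0.035), and Zfand2a, a stress-induced proteasome-binding protein (0.27, adjusted p = 0.041). In hypoxia 2 of the 19 rose, Fbxo7 (0.31) and Zfand2a (0.25), and 2 fell, among them the ubiquitin ligase Ube3c (-0.30, adjusted p = 0.0037; not called with equal column sums, adjusted p = 0.0569). With T3 against normoxia 7 were higher and 3 lower, and Pomp, the core maturation factor, rose by 0.31 (adjusted p = 0.00055). Of the partners 10.5% were called with T3 over hypoxia, 21.1% in hypoxia and 52.6% with T3 against normoxia. Over all genes the shares were 6.48%, 33.6% and 55.1%. Rps27a, which encodes ubiquitin fused to a ribosomal protein, had 181, 174 and 154 CPM with T3, against 142, 138 and 154 CPM in hypoxia and 103, 110 and 119 CPM in normoxia. Both hypoxic groups lay above normoxia and overlapped each other, and Rps27a rose by 0.39 in hypoxia (adjusted p = 0.0029) and by 0.61 with T3 against normoxia (adjusted p = 5.8e-05).

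Of 15 genes of the NRF1 axis and the p97 segregase, 2 rose with T3 over hypoxia, 2 rose and 2 fell in hypoxia, and 6 were higher and 3 lower with T3 against normoxia. In the same order 13.3%, 26.7% and 60% of them were called, against 6.48%, 33.6% and 55.1% of all genes. Nfe2l1 itself had 291, 264 and 286 CPM with T3, against 286, 256 and 265 CPM in hypoxia and 301, 266 and 266 CPM in normoxia, which overlap throughout (log2 change 0.06 with T3 over hypoxia and -0.04 in hypoxia). Herpud1, a component of endoplasmic reticulum degradation, had 111, 105 and 109 CPM with T3, against 79.5, 63.6 and 86.4 CPM in hypoxia and 40.0, 43.3 and 41.2 CPM in normoxia. It rose by 0.51 with T3 (adjusted p = 0.02) and by 0.86 in hypoxia (adjusted p = 0.00014), and the small Maf gene Maff by 0.75 (adjusted p = 0.033) and 1.48 (adjusted p = 0.00017). Vcp, which encodes p97, fell in hypoxia by 0.14 and its cofactor gene Nploc4 by 0.22, but Vcp stood at -0.00 and Nploc4 at -0.08 with equal column sums, where neither passed. Of 10 tested antigen presentation and interferon genes, 2 rose with T3 over hypoxia, H2-K1 (0.84, adjusted p = 0.022) and B2m (0.33, adjusted p = 0.043). In hypoxia 4 rose, among them H2-K1 (0.63), Irf9 (0.48) and B2m (0.35), and with T3 against normoxia 6 were higher. With T3 over hypoxia, in hypoxia and with T3 against normoxia, 20%, 40% and 60% of the 10 genes were called. The calls with T3 over hypoxia on Adrm1, B2m, H2-K1, Herpud1, Maff and Zfand2a were each lost without hypoxia with T3 11 (adjusted p = 0.0882 to 0.161) or hypoxia with T3 12 (0.0729 to 0.139). All but that on Herpud1 were lost without hypoxia 8 (0.077 to 0.161), and all but that on H2-K1 without hypoxia 7 (0.0538 to 0.0907). Those on Adrm1, B2m and Zfand2a also went without normoxia 2 (0.0509 to 0.058), on B2m without normoxia 3 (0.0539), and on B2m and Zfand2a without hypoxia 9 (0.051 and 0.0531). In hypoxia against normoxia some calls were also lost when a library was left out. That on Fbxo7 was lost without normoxia 1, hypoxia 8 or 9 (0.0882 to 0.107). That on Zfand2a was lost without normoxia 1, hypoxia 7 or 9 (0.0513 to 0.0569), and that on H2-K1 without hypoxia 9 (0.0527). The call on Nploc4 was lost without normoxia 2 or 3, hypoxia 7 or 8 (0.0518 to 0.0638). The call on Vcp was lost without normoxia 1 or 2, hypoxia 8 or 9, or hypoxia with T3 12 (0.0599 to 0.127).

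Gene length and cell markers moved with the same comparisons. The 2 genes that fell, Psme4 and Psmd1, spanned 109 and 74.5 kb, ranks 1 and 3 in length among 45 proteasome genes. Psmd14 at rank 2 (88.7 kb) stood at -0.02 in hypoxia and -0.01 with T3, and Psmb7 at rank 4 (56.1 kb) at -0.09 and 0.14, with no call on either. Over 45 proteasome genes, which share libraries, Spearman's rho of length with log2 change was -0.35 with T3 over hypoxia and -0.13 in hypoxia, against -0.48 and -0.47 over 11903 genes. Of 12 neuron markers, 2 fell with T3 over hypoxia and 4 fell in hypoxia, where 3.75% and 19.3% of all genes were called lower. Their summed level was 3633 to 3919 CPM with T3, 4139 to 4642 CPM in hypoxia and 5797 to 6217 CPM in normoxia. Most of that drop was Tubb3, a neuronal tubulin gene, with 563, 701 and 838 CPM with T3, against 922, 1357 and 1033 CPM in hypoxia and 2578, 2278 and 2262 CPM in normoxia. The other 8 markers gave no call in hypoxia, and the median over the 12 was -0.04 in hypoxia and -0.12 with T3 over hypoxia. The summed astrocyte markers spanned 268 to 372, 204 to 395 and 186 to 299 CPM in the same order. Slc1a2 alone gave 139 to 198 CPM of these sums. The oligodendrocyte lineage markers spanned 133 to 189, 80.1 to 214 and 41.2 to 144 CPM. The 6 progenitor markers spanned 76.7 to 139, 50.1 to 146 and 16.8 to 103 CPM. Normoxia 1 had the lowest sum in each of these lists. In hypoxia against normoxia all 9 astrocyte, 8 oligodendrocyte lineage and 6 progenitor markers tested lay above 0 (49.9% of all genes did). Their median log2 changes were 1.009, 0.97 and 0.72, with 1, 1 and 0 called higher (14.3% of all genes). With T3 over hypoxia the medians were 0.07, 0.02 and 0.02, with 0 called (6.48% of all genes were). The 10 microglia markers summed to 1.37 to 2.20 CPM and the 7 endothelial and mural markers to 0.678 to 2.89 CPM over all libraries, with Tmem119 at 0 in all but normoxia 2. Rn45s took 1.04% to 2.65% of the column sum with T3, 1.04% to 1.33% in hypoxia and 3.25% to 4.21% in normoxia. Of these marker calls, that on Aldoc (astrocyte, log2 change 1.94) was lost without normoxia 1, hypoxia 8 or hypoxia 9, and that on Mbp (oligodendrocyte, 0.37) without 6 of the single libraries. That on Tubb3 (-0.66), a neuron marker lower with T3, was lost without normoxia 2, hypoxia 7, hypoxia 8, hypoxia with T3 11 or hypoxia with T3 12. The part of these measures in the proteasome results was not tested. In bulk libraries fewer cells of a type and less RNA per cell cannot be told apart.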

How the data were processed

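Polyadenylated RNA of 9 libraries was sequenced with a stranded kit. The deposited values are a signal the authors scaled, TMM-normalized CPM, in a table of gene symbols; the build mm10 and the tools edgeR, RSEM (1.2.15) and Bowtie2 (2.1.0) are named without roles, per the submitters' processing notes, and the annotation, strand setting and filters are not given in the sources used here. Values were whole multiples of the value of 1 read within 0.01 reads in 99.8878% to 99.9958% of a column's cells, which gave the read totals; 1 read is the limit of precision, for counting error only. In 35 rows, with no proteasome gene among them, some values were off that step. In the deposited table, 1 unnamed column of values was not used.

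The filter asked for more than 1 CPM in 3 or more libraries. One limma model (3.58.1, R 4.3.3, eBayes with a trend) took log2(CPM + 1) of all 9 libraries. Its two-sided p-values were adjusted after Benjamini and Hochberg over 12923 genes and called at 0.05. Changes of low genes are understated on that scale. The alternatives used edgeR 4.0.16 and DESeq2 1.42.0 on recovered reads, other pseudocounts, filters, scalings and thresholds, and each library left out; 2 were chosen after seeing the data, without the 35 rows and with equal column sums without Rn45s. The fits were tested on simulated data.

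Values of every library are given for the 2 genes of each subunit class with the smallest p in each of the first 2 comparisons described, the 3 genes with the least change in hypoxia, and every gene called with T3 over hypoxia. Psmd9, Psmd12, Psme3, Psmc3ip and Nfe2l1 were added after their values were seen. Related lists name genes among the 4 with the smallest adjusted p per comparison, and Pomp, also chosen after. Some genes of the related and marker lists are not reported here. The members and lists were chosen with earlier results of these data known. Transcript lengths and exon overlaps come from GENCODE vM21 (GRCm38, the same build as mm10). Exons overlap another gene on the opposite strand in Psma4, Psma5, Psmb7, Psmc3, Psmc3ip, Psmd3, Psmd13 and Psme1, and on the same strand in Psmb5, Psmd1 and Psmg3; these values are uncertain.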

Additional observations from a re-analysis of the deposited data

How the results depend on the processing

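In hypoxia against normoxia the 7 calls became 23 with equal column sums, 17 with equal sums without Rn45s, 11 with quantile normalization and 2 at a threshold of 0.01, and 3 to 8 when a library was left out; Psme4 was called in every alternative, and Psmc6 in every one but the threshold of 0.01. The median of 0.03 was 0.1724 with equal sums and 0.1345 without Rn45s, where the median of all genes was 0.13 and 0.09, and 0.0084 to 0.0537 with a library left out. In hypoxia with T3 against hypoxia the 4 calls became 0 without a filter, 0 with only the 2 groups, 0 with equal sums and 0 at a threshold of 0.01; 1 with equal sums without Rn45s; 1 without a variance trend; 7 with a mean of at least 5 CPM; 11 by DESeq2; 20 with library weights; and 0 to 11 with a library left out. The share of all genes called moved too: it was 6.485% in the reported fit, 0.8798% without a filter, 2.128% with only the 2 groups, 7.591% with equal sums, 10.63% with a mean of at least 5 CPM, 13.52% by DESeq2, 23.6% with library weights and 0.2399% to 14.06% with a library left out. The proteasome median stayed at 0.111 to 0.1684 with a library left out. In hypoxia with T3 against normoxia the 26 calls became 20 to 26 with a library left out, and the median of 0.16 was 0.2589 with equal sums, 0.2285 without Rn45s, 0.2208 with quantile normalization and 0.14 to 0.2011 with a library left out. No call on a proteasome gene turned its direction in any alternative run, and the cause of the lost calls was not tested. No paired analysis was possible because the numbers in the hypoxic columns (7 to 9 and 11 to 13) occur nowhere among the replicate numbers of the titles. Depth limits Psmb11 and Psmc3ip, at about 1 CPM.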
